A study of Mus musculus with 6 samples.

Results

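The small leucine-rich proteoglycans Dcn, Bgn, Aspn, Lum, Fmod, Prelp, Ogn and Chad and the tendon markers Tnmd and Comp were followed in skeletal muscle of FLExDUX4 mice and their wild-type (WT) littermates. These 10 genes were chosen by name among the 52550 mouse genes of the deposited table, and each was found on 1 row. RNA was taken from 3 FLExDUX4 and 3 WT males, and the QuantSeq libraries read a short stretch next to the poly(A) tail. The FLExDUX4 mice were hemizygous for a human DUX4 transgene that sits inverted between lox sites in the Rosa26 locus. No Cre driver was present, so that DUX4 came only from leaky expression of the inverted copy, while the WT mice carried no transgene. The samples are labelled as quadriceps of mice 13 weeks old, whereas the published methods name triceps muscle of younger mice.

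Small leucine-rich proteoglycans are secreted proteins with a chain of leucine-rich repeats that bind collagen fibrils, and most of them carry chondroitin, dermatan or keratan sulfate. They limit the lateral growth of fibrils, set their spacing and hold growth factors such as TGF-beta in the matrix. In skeletal muscle they are made mostly by fibroblasts of the connective tissue and by tendon cells, and they are widely measured in work on fibrosis. Tnmd encodes tenomodulin, a membrane protein of mature tendon cells, and Comp encodes cartilage oligomeric matrix protein, a matrix protein of tendon and cartilage.

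The proteoglycan members fall into classes by the spacing of 4 cysteines near the start of the mature protein. The coding sequence of this cluster is shown for all 8, because it is the feature that tells the classes apart and the choice of genes did not use it. Capitals mark the 4 cysteine codons (TGC or TGT), read in frame on the coding strand.
Dcn: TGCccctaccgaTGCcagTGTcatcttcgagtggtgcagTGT
Bgn: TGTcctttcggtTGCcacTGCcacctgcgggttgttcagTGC
Aspn: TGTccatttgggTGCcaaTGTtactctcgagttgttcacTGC
Lum: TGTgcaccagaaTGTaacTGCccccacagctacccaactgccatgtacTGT
Fmod: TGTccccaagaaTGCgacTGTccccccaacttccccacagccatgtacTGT
Prelp: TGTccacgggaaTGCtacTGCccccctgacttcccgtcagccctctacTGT
Ogn: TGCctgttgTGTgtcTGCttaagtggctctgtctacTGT
Chad: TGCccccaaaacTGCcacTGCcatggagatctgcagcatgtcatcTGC

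In Dcn, Bgn and Aspn, 3, 1 and 6 codons separated the cysteine codons, the spacing of class I. In Lum, Fmod and Prelp the spacing was 3, 1 and 9 codons, that of class II. Ogn had 2, 1 and 6 codons (class III) and Chad had 3, 1 and 8 (class IV). Of 21492 mouse coding sequences in GENCODE M21, 0.219% held the class I spacing, 0.0698% the class II spacing, 0.307% that of Ogn and 0.181% that of Chad. Neither Tnmd nor Comp held any cluster of this kind. Leucine codons made up between 13.1% (Aspn) and 17.3% (Chad) of the codons of the 8 proteoglycans, against 6.31% in Tnmd and 5.03% in Comp.

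On GRCm38 these stretches lie at chr10:97483507-97483548 (Dcn), chrX:73490979-73491020 (Bgn), chr13:49551865-49551906 (Aspn), chr10:97568353-97568403 (Lum), chr1:134040449-134040499 (Fmod), chr13:49615566-49615604 (Ogn) and chr11:94565161-94565208 (Chad) on the plus strand, and at chr1:133915151-133915201 on the minus strand for Prelp. Each is within 1 coding exon, which is exon 2 of the transcript for all but Ogn (exon 4) and Chad (exon 1). Several members are neighbours in the genome. Lum starts 46984 bases after the end of Dcn on chromosome 10, on the same strand, and is followed by Kera and Epyc, which encode the proteoglycans keratocan and epiphycan. Aspn and Ogn lie 40480 bases apart on chromosome 13, with Omd (osteomodulin) between them. Fmod and Prelp lie 115839 bases apart on chromosome 1, on opposite strands.

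Summed over genes, the FLExDUX4 total was 13110125 counts and the WT total 18367364. Only these totals of 3 mice were analysed, so that each gene has 1 value for each genotype, the spread between mice is unknown, and a single mouse could decide a ratio. Ratios are log2 values of FLExDUX4 over WT after TMM scaling, and the 95% intervals cover counting error only. A gene was called past the fold at a ratio of at least 1.5-fold in either direction. Because every transcript is read at its 3′ end, levels of different genes in counts per 1000000 (CPM) were set side by side without division by length. The 10 muscle fibre markers were abundant in both totals, led by the skeletal actin gene Acta1 with 34707 CPM in WT and 35944 CPM in FLExDUX4 mice. Hindlimb markers were near 0: Hoxc10 and Hoxc11 had 0 counts in both genotypes, and Pitx1 had 0 in FLExDUX4 and 1 in WT mice. Tbx4 had 10 counts in each. The forelimb gene Tbx5 was also low, with 14 and 34 counts, or 1.08 CPM in FLExDUX4 and 1.83 CPM in WT mice.

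Comp was too low for a ratio, and of the 9 members that remained, 0 were past 1.5-fold. Over all 13396 genes compared, 26.8% were past 1.5-fold, but many of those had few counts. Among the 5252 genes with at least 400 counts over both genotypes, the range in which the 9 members lie, the share was 3.43%. The ratio was above 0 for 8 of the 9 members, with a median of 0.11, beside -0.001 over all genes compared and 0.003 over the 5252 genes, of which 50.7% were above 0. With scaling to the spike-in RNAs in place of TMM, every ratio was lower by 0.28 (log2), and 3 of the 9 members were above 0, beside 12.3% of the 5252 genes. This shift is common to all genes and leaves the members' differences from one another as they are.

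Dcn encodes decorin, the main proteoglycan of the muscle connective tissue, and was the most abundant member by far. It had 9583 counts in FLExDUX4 and 13359 in WT mice, which is 739 CPM (interval 724 to 754) and 719.8 CPM (interval 708 to 732). The log2 ratio was 0.04 (interval -0.00086 to 0.08), and -0.24 with spike-in totals. Dcn took 75.3% of all member counts in FLExDUX4 mice and 76.6% in WT mice, so that a sum over the members is mostly a value of Dcn.

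The other class I genes are Bgn, which encodes biglycan, and Aspn, which encodes asporin, a protein without glycosaminoglycan chains. Bgn had 389 counts in FLExDUX4 and 476 in WT mice, a level of 30.0 CPM against 25.6 CPM. Its log2 ratio was 0.23 (interval 0.03 to 0.42), and -0.050 with spike-in totals. Aspn had 211 and 279 counts, or 16.3 and 15.0 CPM, a log2 ratio of 0.11 (interval -0.15 to 0.38). The counting interval thus lay above 0 for Bgn and held 0 for Aspn.

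**Figure D1:**
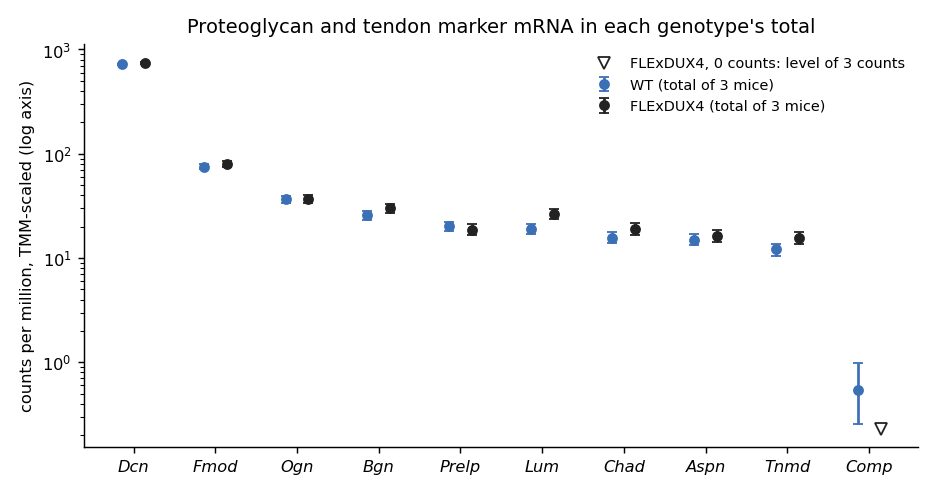
Level of each of the 10 members in the total of the 3 WT mice (blue) and of the 3 FLExDUX4 mice (black), in TMM-scaled CPM on a log axis. Bars are 95% Poisson intervals of the count, the open triangle marks the level that 3 counts would give for Comp, which had 0 counts in FLExDUX4 mice, and the levels run from 719.8 CPM for Dcn to 0.54 CPM for Comp in WT mice.

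Among class II genes, Lum, which encodes lumican, had the highest ratio of all members. It had 344 counts in FLExDUX4 mice and 353 in WT mice, although the FLExDUX4 total is the smaller one, which is 26.5 CPM (interval 23.8 to 29.5) against 19.0 CPM (interval 17.1 to 21.1). The log2 ratio was 0.48 (interval 0.26 to 0.70), or 1.39-fold. Of the 5252 genes with at least 400 counts, 3.75% had a higher ratio than Lum. With spike-in totals the ratio was 0.20 and its interval, -0.02 to 0.42, held 0.

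Fmod, which encodes fibromodulin, and Prelp, which encodes a basic proteoglycan that links collagen to basement membrane, are the other class II genes. Fmod was the member with the most counts after Dcn, with 1030 in FLExDUX4 and 1389 in WT mice, or 79.4 and 74.8 CPM. Its log2 ratio was 0.09 (interval -0.03 to 0.20). Prelp was the only member compared whose ratio was below 0 under TMM scaling, with 243 and 374 counts, 18.7 and 20.2 CPM and a log2 ratio of -0.10 (interval -0.34 to 0.13). Summed over class II, the ratio was 0.13 (interval 0.03 to 0.22), beside 0.05 (interval 0.01 to 0.08) for class I, which is mostly Dcn. Without Dcn, class I had a ratio of 0.19 (interval 0.03 to 0.34), and its interval overlapped that of class II.

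Ogn encodes osteoglycin, also called mimecan, and came after Dcn and Fmod in both genotypes. It had 480 counts in FLExDUX4 and 678 in WT mice, or 37.0 and 36.5 CPM, a log2 ratio of 0.02 (interval -0.15 to 0.19). Chad encodes chondroadherin, which binds collagen and integrins and is best known from cartilage. Chad had 248 and 291 counts, or 19.1 and 15.7 CPM, a log2 ratio of 0.29 (interval 0.04 to 0.54), which was 0.010 with spike-in totals. Ogn was therefore close to equal in both genotypes under TMM scaling, and Chad was 1.22-fold higher in FLExDUX4 mice with an interval that reached nearly to 0.

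Of the tendon markers, Tnmd had 202 counts in FLExDUX4 mice and 224 in WT mice. This is 15.6 CPM (interval 13.5 to 17.9) against 12.1 CPM (interval 10.5 to 13.8), a log2 ratio of 0.37 (interval 0.09 to 0.65) that became 0.09 with spike-in totals. Comp had 0 counts in FLExDUX4 mice and 10 in WT mice. At the WT level, 6.99 counts of Comp would be met in a total of the FLExDUX4 size. The WT level was 2.33 times that of 3 counts over the FLExDUX4 group, the level used as the limit of detection. The counting interval of the ratio, which also covers the error of the WT count, began at 1.57-fold lower in FLExDUX4 mice. Tnmd and Comp, the tendon markers, thus lay on opposite sides, but Comp rests on so few counts that 1 mouse could hold all of them.

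The counting interval lay above 0 for 4 of the 9 members, namely Lum, Tnmd, Chad and Bgn, and below 0 for 0 of them. Among the 5252 genes with at least 400 counts, 23.1% had an interval above 0 and 22.3% one below 0. At least 25% higher in FLExDUX4 mice were 2 members (Lum and Tnmd), beside 9.23% of those genes. With spike-in totals, the interval lay above 0 for 0 members and below 0 for 4 of them, namely Dcn, Fmod, Prelp and Ogn, beside 3.75% above and 68.1% below 0 among the same genes. The spike-in intervals are the TMM intervals moved by the same -0.28, so that the 2 sets of calls are not independent. Aspn was the member compared whose interval held 0 under both.

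**Figure D2:**
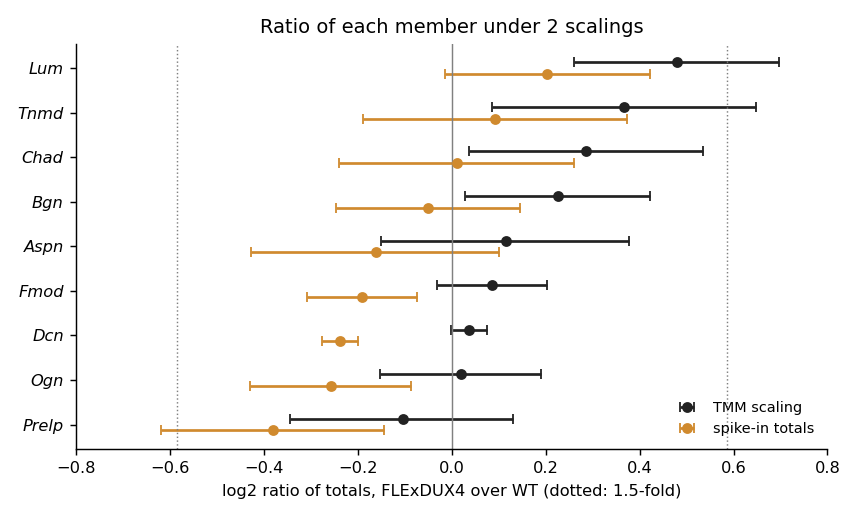
Log2 ratio of FLExDUX4 over WT totals for the 9 members compared, with TMM scaling (black) and with spike-in totals (orange). Bars are 95% Clopper-Pearson intervals for counting error, dotted lines mark 1.5-fold, and all 9 members lie between -0.38 and 0.48 under both scalings.

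The order of the levels differed little between the genotypes. In WT mice Dcn, Fmod, Ogn and Bgn led, in this order, each above the next beyond counting error, and Prelp, Lum, Chad, Aspn, Tnmd and Comp followed. Within that order Prelp and Lum, with 374 and 353 counts, and Chad and Aspn, with 291 and 279, were not apart beyond counting error. In FLExDUX4 mice the first 4 places were the same, Lum stood in front of Chad and Prelp, and Bgn and Lum (389 and 344 counts) could not be told apart. Chad, Prelp, Aspn and Tnmd, between 248 and 202 counts, formed a run in which no neighbours were apart. Prelp, in front of Lum and Chad in WT mice, came after both. Per 100 counts of Prelp there were 142 of Lum in FLExDUX4 mice and 94.4 in WT mice, a pair chosen as the highest and the lowest ratio of the members, so that its gap is a description only.

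Ratios between genes of the same total do not depend on the scaling. Per 100 counts of Dcn, Lum had 3.59 in FLExDUX4 and 2.64 in WT mice, a log2 ratio of 0.44 (interval 0.22 to 0.66). Tnmd had 2.11 and 1.68 per 100 Dcn, a log2 ratio of 0.33 (interval 0.05 to 0.61). Fmod had 10.7 and 10.4 per 100 Dcn, a log2 ratio of 0.05 (interval -0.07 to 0.17), and Ogn had 5.01 and 5.08. Of 8 members set against Dcn, 3 (Lum, Chad and Tnmd) had an interval above 0 and 0 had one below it. Of the other genes with at least 400 counts, 18.0% had an interval above 0 per count of Dcn and 27.1% one below it. Relative to decorin mRNA, then, fibromodulin and osteoglycin mRNA were within counting error of the WT proportion, while lumican and tenomodulin mRNA were above it.

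The proteoglycans coat fibrils made mostly of type I collagen, whose chains are encoded by Col1a1 and Col1a2. Summed over both chains, collagen counts were 10149 in FLExDUX4 and 10985 in WT mice, a log2 ratio of 0.40 (interval 0.36 to 0.44). Per 100 of these collagen counts there were 94.4 counts of Dcn in FLExDUX4 mice and 122 in WT mice, a log2 ratio of -0.37 (interval -0.42 to -0.31). Fmod had 10.1 against 12.6 per 100 collagen counts, a log2 ratio of -0.32 (interval -0.44 to -0.19). Of the 9 members, 5 (Dcn, Aspn, Fmod, Prelp and Ogn) had an interval below 0 on this scale and 0 had one above it. Of the genes with at least 400 counts, 81.8% had an interval below 0 per count of type I collagen and 1.71% one above it, with a median of -0.40, so that this count follows the collagen chains and is not particular to the members. The interval held 0 for the other 4, among them Lum, with 3.39 against 3.21 per 100 and a log2 ratio of 0.08 (interval -0.14 to 0.29), and Tnmd, with 1.99 against 2.04 and a log2 ratio of -0.03 (interval -0.31 to 0.24).

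**Figure D3:**
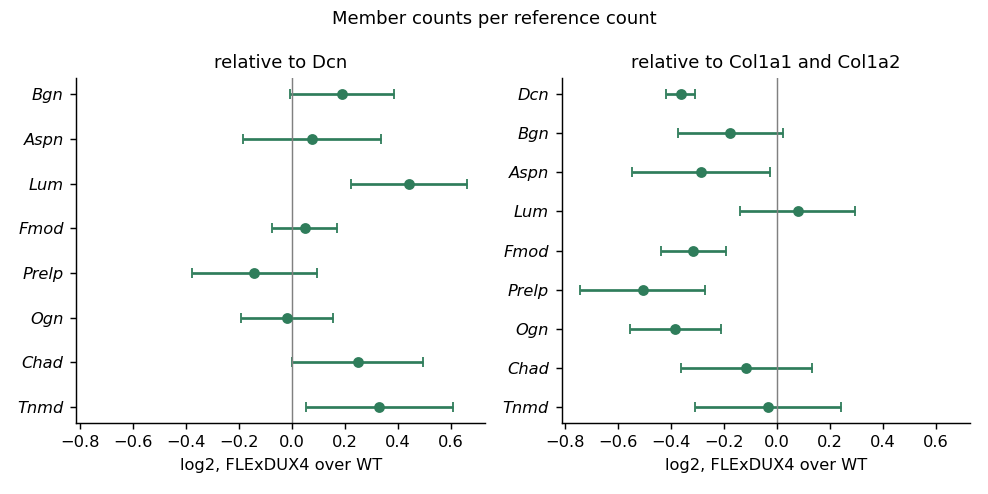
Change in the number of counts of each member per count of Dcn (left) and per count of Col1a1 and Col1a2 together (right), as log2 of FLExDUX4 over WT. Bars are 95% Wald intervals for counting error, and Dcn, Aspn, Fmod, Prelp and Ogn lie wholly below 0 on the right, where Dcn is at -0.37.

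In bulk muscle, a different number of connective tissue cells and a different amount of RNA per cell cannot be told apart. The 12 fibroblast markers had ratios from -0.37 to 0.53 with a median of 0.05, and 0 were past 1.5-fold, beside 26.8% of all genes compared. Their summed level was 903 CPM in WT and 956 CPM in FLExDUX4 mice, most of it from Gsn, which encodes gelsolin and had 10878 and 7862 counts. Per 100 fibroblast marker counts, Dcn had 77.2 in FLExDUX4 and 79.7 in WT mice, which is -0.05 on the log2 scale (interval -0.10 to 0.004), and Fmod had 8.30 and 8.29. On this scale Lum (0.40, interval 0.18 to 0.61) and Tnmd (0.28, interval 0.01 to 0.56) were the 2 of 9 members with an interval above 0, and 0 lay below it, beside 13.0% and 35.9% of the genes with at least 400 counts. The 10 muscle fibre markers had a summed log2 ratio of -0.01, with single genes from -0.19 to 0.05.

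**Figure D4:**
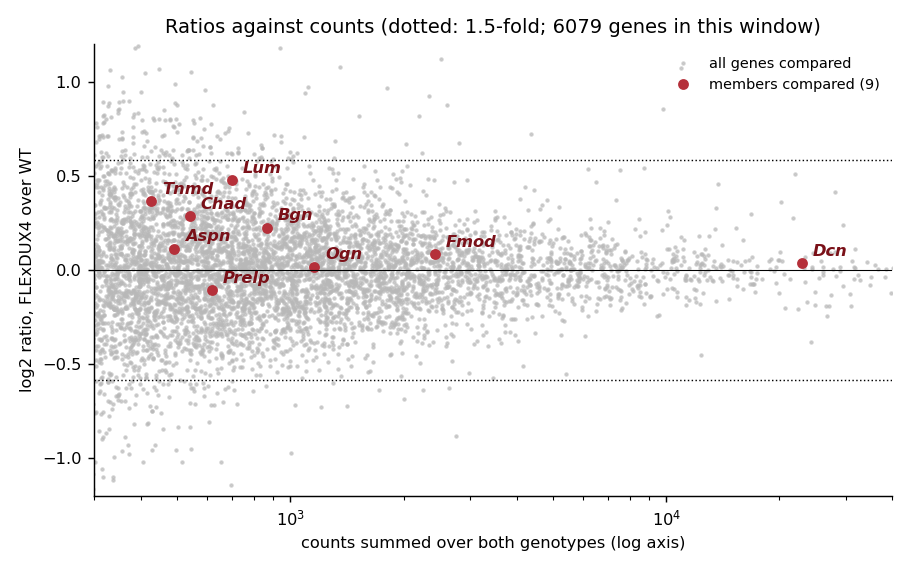
Log2 ratio of FLExDUX4 over WT against the counts summed over both genotypes (log axis), for the genes compared with 300 to 40000 counts and ratios within 1.2 on the log2 scale (grey, 6079 genes) and for the 9 members (red). Dotted lines mark 1.5-fold, and all 9 members lie inside them and inside the cloud of genes with similar counts.

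Tendon cells are marked by the transcription factors Scx and Mkx and by Thbs4 and Kera. Scx, which encodes scleraxis, had 53 counts in FLExDUX4 and 154 in WT mice, which gave a log2 ratio of -1.01 (interval -1.50 to -0.56). Under spike-in scaling it was -1.29. Thbs4, which encodes thrombospondin 4, was the most abundant of the tendon genes with 743 and 1004 counts and a log2 ratio of 0.08 (interval -0.06 to 0.22). Kera, the neighbour of Lum, had 208 and 288 counts and a ratio of 0.05 (interval -0.22 to 0.31). Mkx, which encodes mohawk, had 23 and 14 counts and a ratio of 1.21 (interval 0.21 to 2.30), or 0.94 (interval -0.06 to 2.03) under spike-in scaling. Together these 4 markers stood at 79.2 CPM in FLExDUX4 and 78.7 CPM in WT mice, a log2 ratio of 0.01 (interval -0.11 to 0.13). Most of these counts were of Thbs4, so that the sum is mostly a value of that gene. Of 12 tendon genes other than the members, 1 (Mkx) was higher and 1 (Scx) lower past 1.5-fold, beside 13.2% and 13.5% of all genes compared, and their median was 0.15.

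Cartilage, the other source of Comp and Chad, was hardly seen. Of 10 cartilage markers, 6 had 0 counts in both genotypes, among them Acan, which encodes the proteoglycan aggrecan, and Col2a1 had 2 and 1 counts. Together the 10 markers stood at 6.17 CPM in FLExDUX4 and 9.54 CPM in WT mice. This is a log2 ratio of -0.62 (interval -1.03 to -0.24), with most of the counts from Sox9. The 2 that could be compared were past 1.5-fold in opposite directions, beside 13.2% higher and 13.5% lower of all genes. They were Sox9 and Col9a1, which had 10 and 9 counts and a ratio of 0.66 (interval -0.78 to 2.14). Sox9, a transcription factor of cartilage that is also active in tendon, had 68 counts in FLExDUX4 and 160 in WT mice, a log2 ratio of -0.71 (interval -1.15 to -0.30). Markers of tendon and cartilage thus had ratios of both signs within each list, but the cartilage ratio above 0, that of Col9a1, had an interval that held 0. The part of tendon or cartilage taken with the muscle in the ratios of the members was not tested.

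Of the other small leucine-rich proteoglycans, 10 were listed and 5 had enough counts, with ratios from -0.64 to 0.44 and a median of -0.05. Of these, 0 were higher and 1 was lower past 1.5-fold, beside 13.5% of all genes compared that were lower past it. This was Chadl, with 6 and 14 counts and an interval that held 0 (-2.37 to 0.76). Ecm2, which lies next to Aspn and was the most abundant of them, had 211 counts in FLExDUX4 and 380 in WT mice, a log2 ratio of -0.33 (interval -0.58 to -0.09). Within the chromosome 13 cluster, the ratios were -0.33 (Ecm2), 0.11 (Aspn), 0.44 (Omd, from 19 and 20 counts) and 0.02 (Ogn). Of these, only the interval of Ecm2 excluded 0. On chromosome 10, Dcn (0.04) and Kera (0.05) lay close together with Lum (0.48) between them, and Epyc had 0 counts in both genotypes.

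The fibrils that carry the proteoglycans are built from fibrillar collagen chains, of which 8 could be compared. Their median ratio was 0.11, with 1 higher and 0 lower past 1.5-fold, beside 13.2% and 13.5% of all genes compared. The higher one, Col11a1, had 80 and 67 counts and a log2 ratio of 0.77 (interval 0.29 to 1.26). Col1a2, the most abundant chain, had 6351 and 7230 counts and a ratio of 0.33 (interval 0.28 to 0.38), above all members but Lum and Tnmd, and Col1a1 was at 0.53 (interval 0.47 to 0.60). Of the type V chains, Col5a1 was at -0.40 (interval -0.63 to -0.18) and Col5a3 at -0.33 (interval -0.57 to -0.09), and Col5a2 was at 0.22 (interval 0.002 to 0.44) and Col3a1 at 0.01 (interval -0.07 to 0.08). Under spike-in scaling, which shifts every ratio by -0.28, 3 chains were past 1.5-fold, all of them lower (Col5a1, Col5a3 and Col11a2). Col11a1 was then at 0.49 and no longer past it. The share of all genes past 1.5-fold was not taken under this scaling. Of 14 enzymes of fibril processing and cross-linking compared, 1 was higher past 1.5-fold (Loxl3, 0.97, from 29 and 21 counts) and 1 lower (Plod2, a lysyl hydroxylase, -0.77, interval -1.30 to -0.29), beside the 13.2% and 13.5% of all genes. Pcolce, which enhances cleavage of the type I procollagen C-terminus, had 614 and 791 counts and a ratio of 0.15 (interval -0.003 to 0.30).

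Of the enzymes that build chondroitin, dermatan and keratan sulfate chains, 28 were listed and 23 could be compared. Of these, 5 were higher and 2 lower past 1.5-fold, beside 13.2% and 13.5% of all genes compared, and the median ratio was 0.06. The lower ones were Xylt2 and Dse. Xylt2, which starts the chain on the core protein, had 4 and 28 counts (interval -4.26 to -0.78). Dse, an epimerase that makes dermatan sulfate, had 27 and 61, and its interval held 0 (-1.37 to 0.02). Papss2, which makes the sulfate donor, had 111 counts in FLExDUX4 and 62 in WT mice, a log2 ratio of 1.35 (interval 0.90 to 1.83). Chst14, the dermatan 4-O-sulfotransferase, had 31 and 19 counts and a ratio of 1.21 (interval 0.35 to 2.13), and Chst1, a keratan sulfate sulfotransferase, had 80 and 61 counts and a ratio of 0.90 (interval 0.41 to 1.41). Chsy1, a chondroitin synthase, had a ratio of 0.79 (interval 0.24 to 1.35), and B3galt6, which builds the linker of the chain, one of 0.80 from 33 and 27 counts. With spike-in totals, 7 were past 1.5-fold, Papss2, Chst14 and Chst1 higher and Xylt2, Dse, B4galt7 and B4galt4 lower. Fam20b, the xylose kinase and the most abundant of the list, had 503 and 695 counts and a ratio of 0.05 (interval -0.12 to 0.22).

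Decorin and biglycan bind growth factors and receptors, and 16 such genes were compared, with a median ratio of 0.09. Of these, 1 was higher and 2 were lower past 1.5-fold, beside the 13.2% and 13.5% of all genes. With spike-in totals, 7 were past 1.5-fold, Ctgf higher and Tgfb1, Tgfb2, Tgfb3, Kdr, Tlr2 and Tlr4 lower. That scaling shifts every ratio by -0.28, and the share of all genes past 1.5-fold was not taken under it. The ratios that follow are under TMM scaling. Ctgf was the higher one, with 645 and 470 counts and a ratio of 0.97 (interval 0.80 to 1.15). Of the 16 genes, 6 had an interval above 0 and 4 had one below it. Among genes with at least 400 counts, 23.1% had an interval above 0 and 22.3% one below it. The genes of the TGF-beta ligands were all lower in the FLExDUX4 total, while the receptor gene Tgfbr2 had a ratio of 0.30 (interval 0.04 to 0.57). Tgfb1 had 4 and 47 counts and a ratio of -2.88 (interval -4.97 to -1.59), Tgfb2 had 343 and 656 counts and one of -0.42 (interval -0.61 to -0.23), and Tgfb3 had 216 and 390 and one of -0.33 (interval -0.58 to -0.09). Tlr2, a receptor for biglycan, was the other gene lower past 1.5-fold under TMM scaling. It had 5 and 13 counts, with an interval of -2.70 to 0.72. Kdr, the VEGF receptor and the most abundant of the list in WT mice, had 632 and 1334 counts and a ratio of -0.56 (interval -0.70 to -0.42).

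**Figure D5:**
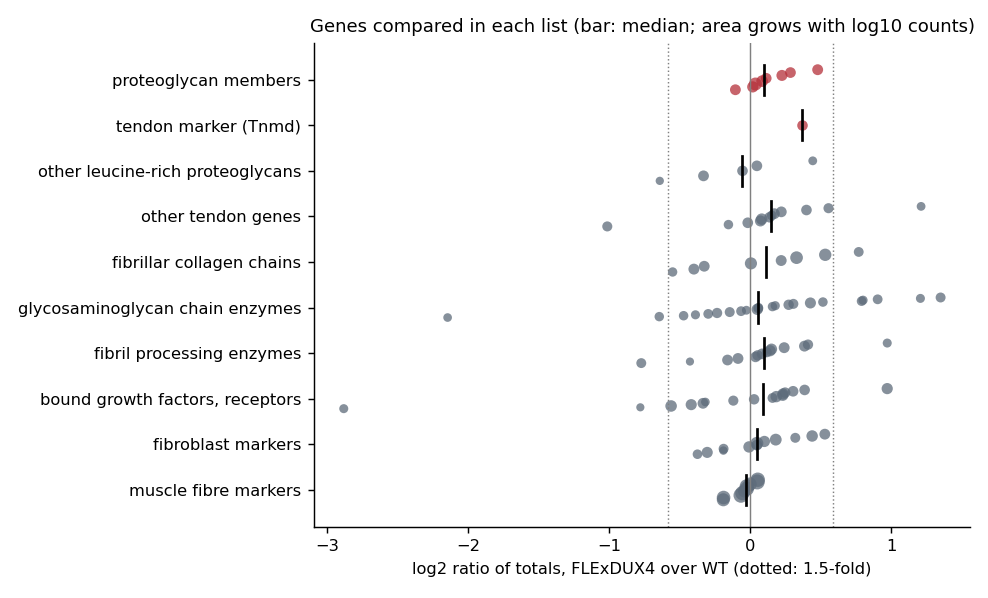
Log2 ratio of FLExDUX4 over WT for the genes compared in each list, with the members in red and the other lists in grey. Black bars are medians, dotted lines mark 1.5-fold, and the members lie between -0.10 and 0.48, within the ranges of the lists of tendon genes, collagen chains and enzymes.

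Of the members, 3 overlap a gene on the opposite strand that had counts. Aspn and Ogn lie within Cenpp, which had 8 counts in FLExDUX4 and 32 in WT mice, and Chad overlaps Acsf2, which had 3 in each. QuantSeq forward libraries keep the strand, but whether the counting used it is not given in the sources used here, and the part of reads from the opposite strand in these members was not tested.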

How the data were processed

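Muscle RNA of 3 FLExDUX4 and 3 WT mice was sequenced with QuantSeq. After trimming (Cutadapt 1.16), the authors mapped reads by STAR 2.5.3a on GRCm38 extended by the ERCC and SIRV spike-ins, and they tested genotypes in DESeq2. The submitters' processing notes also name featureCounts 1.6.2. The deposited values used here are raw counts of each gene, summed by the authors over a genotype (13110125 and 18367364 counts on genes, 220016 and 259913 on 99 spike-ins). A further 6 columns of single samples have names that match no sample label and were not used, nor were the authors' mean, fold changes and p-values.

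TMM factors came from edgeR 4.0.16 under R 4.3.3, fitted on 13396 genes that passed filterByExpr. Each log2 ratio used a pseudocount of 0.5. Intervals (95%, scipy 1.17.1) are Clopper-Pearson for ratios of totals, Poisson for CPM and Wald for ratios between genes. They cover counting error only. With 1 value a group no test was possible, and the edgeR test planned for values of single samples was not run. Alternatives were other scalings (RLE, upper quartile, gene totals, spike-ins), other filters, another pseudocount and other fold thresholds. Coordinates and coding sequences are from GENCODE M21 (GRCm38), using the longest coding sequence of each gene, and every gene start printed equals the deposited one.

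The members and lists were chosen with earlier results of these data known. Besides the members, the genes named are, in each list, up to 5 past 1.5-fold with an interval that excludes 0 and at least 50 counts, and the gene with the most counts. Neighbours of members, limb markers, genes with 0 counts in a genotype, Mkx, Chadl, Xylt2, Dse and B4galt7 were named after their values were seen. The same holds for B4galt4, Tlr2, Tlr4, Tgfb2, Tgfb3, Tgfbr2, Col1a1, Col3a1, Col11a2, the type V chains, Col2a1, Col9a1 and Acan. The minimum of 400 counts was also set after values were seen.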

Additional observations from a re-analysis of the deposited data

How the results depend on the processing

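No paired analysis was possible because each genotype entered as 1 total. DESeq2, edgeR's test and fits without a replicate were left out on the same ground. RLE, upper-quartile and gene-total scaling, keeping every gene, a minimum of 10 counts per total and a pseudocount of 2 left all 54 values of the 9 members compared within their counting intervals, with moves of at most 0.03. With spike-in totals the ratios were -0.24 (Dcn), -0.050 (Bgn), -0.16 (Aspn), 0.20 (Lum), -0.19 (Fmod), -0.38 (Prelp), -0.26 (Ogn) and 0.010 (Chad), the median -0.16 and the summed counts -0.21. Why the spike-ins differ was not tested. Without Dcn, the summed counts had a ratio of 0.14 in place of 0.06. With the threshold at 25% higher, or the same factor lower, 2 members were past the threshold in place of 0.

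Of 104 distinct genes compared in the 12 further lists, 10 were higher and 9 lower past 1.5-fold, beside 13.2% and 13.5% of all genes compared. These became 6 and 21 with spike-in totals, which shift every ratio by -0.28, 23 and 20 at the 25% threshold, and 3 and 3 at 2-fold. The share of all genes was not taken at these settings, so that the counts describe the lists only. The number lower was 15 when every gene was kept and 5 with the minimum of 10 counts, as more or fewer genes were then compared. Depth leaves Comp, with 10 counts in all, as a bound.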

Other observations

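Apart from Comp, 5 genes of the further lists had 0 counts in one genotype and more than 3 in the other, and were named after their values were seen. Chst3, a chondroitin 6-O-sulfotransferase, had 11 counts in FLExDUX4 and 0 in WT mice, and the counting interval of its ratio began at 3.59-fold higher. Tll1, a protease of the family that cleaves procollagens and proteoglycan propeptides, had 5 and 0 counts, with an interval that began at 1.31-fold higher. Chst13, a chondroitin 4-O-sulfotransferase, had 4 and 0 counts, with an interval that held equal levels. In the other direction, Tsku, a leucine-rich proteoglycan, had 0 and 8 counts, with an interval that began at 1.19-fold lower in FLExDUX4 mice. Matn3, a cartilage matrix protein, had 0 and 7 counts, with an interval that reached to equal levels within 1.01-fold. All are near the limit of detection, and a single mouse could hold the counts of each.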
